A study of Mus musculus with 6 samples.

Results

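The interferon response and MHC class I genes were 34 named mouse genes, chosen by symbol as a named gene group, with earlier results of these data known. They comprised 26 genes of the type I and type II interferon response and 8 genes that make, load or carry peptides on MHC class I molecules. Of the 34, 33 had a row in the deposited table of 14824 genes, and Mx1, an interferon-induced GTPase, had no row in it. After the filter on low counts 30 of the 33 could be tested among 13747 genes, and Oas1a, Oas2 and Oasl1 fell under the filter.

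RNA was sequenced from the primary somatosensory (S1) cortex of wild-type C57B6 mice at postnatal day 21. The 3 WS libraries came from cortex that had received daily whisker stimulation (WS), a sensory drive to the barrel field, for 8 days and was taken 90 min after the last stimulation, and the 3 NS libraries came from non-stimulated (NS) cortex. All mice were unmodified males per the study's methods, and the control tissue was described as the barrel cortex of the unstimulated side. Each library was a piece of whole cortex, so neurons, glia, vessels and blood cells were measured together, and the labels did not say which NS and WS libraries came from the same animal.

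Interferons are secreted cytokines that bind receptor pairs on the cell surface and signal through Janus kinases to STAT proteins, among them STAT2, which with IRF9 is part of the complex that binds the interferon-stimulated response element (ISRE) in target promoters. The gamma-activated site (GAS) is the element through which interferon-gamma mainly acts. The target genes include RNA sensors, antiviral effectors and the MHC class I pathway, in which the immunoproteasome cuts proteins into peptides, TAP1 and TAP2 carry the peptides into the endoplasmic reticulum, tapasin (Tapbp) helps to load them, and the heavy chains H2-K1 and H2-D1 display them together with beta-2-microglobulin (B2m). In the healthy brain microglia and endothelial cells carry most of the class I expression, and neurons express it at low levels in development, where it has been studied in synapse refinement.

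Promoter sequences are shown because the ISRE lies near the transcription start of many interferon targets. RefSeq windows from 250 bases before to 50 bases after the start (GRCm38.p6) were matched to 26 of the 33 members, and no window was matched for Oas2, Usp18, Gvin1, Rtp4, Ifi27, Parp14 and Tap2. The ISRE core was searched as GAAANNGAAA and the GAS core as TTCNNNGAA, on either strand, and matches of the same motif could overlap one another. An ISRE core was present in 12 of the 26 members (46.2%), against 3.99% of all 27025 genes with a window and 3.66% of the listed genes. The 12 were B2m, Bst2, Ddx58, Ifih1, Ifit1, Ifit3, Ifitm3, Isg15, Oas1a, Rsad2, Stat2 and Trim30a. A GAS core was present in 7 of the 26 (26.9%), against 9.55% of all genes with a window. Since the members were picked as known interferon targets, these shares describe the choice of genes, and a match is a run of letters and not a shown binding site. The 160 bases before the start are given for 5 members that the results below return to, 5′ to 3′ on the coding strand, with every base inside an ISRE core in capitals and the rest in lower case.
Ifit1, chr19:34640729-34640888, plus strand, with 2 cores that begin 104 and 85 bases before the start: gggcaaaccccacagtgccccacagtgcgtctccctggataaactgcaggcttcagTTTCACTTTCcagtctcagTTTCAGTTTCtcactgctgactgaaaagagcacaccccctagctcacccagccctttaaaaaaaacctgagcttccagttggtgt
Oas1a, chr5:120907526-120907685, minus strand, with 2 overlapping cores that begin 20 and 14 bases before the start: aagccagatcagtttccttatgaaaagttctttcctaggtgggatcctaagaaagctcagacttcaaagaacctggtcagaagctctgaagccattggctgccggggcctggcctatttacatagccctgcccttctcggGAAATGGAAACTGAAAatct
Isg15, chr4:156200819-156200978, minus strand, with 3 overlapping cores that begin 78, 72 and 66 bases before the start: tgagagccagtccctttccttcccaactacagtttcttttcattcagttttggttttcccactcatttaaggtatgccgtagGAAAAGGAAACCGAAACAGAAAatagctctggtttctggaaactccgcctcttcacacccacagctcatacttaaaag
B2m, chr2:122147527-122147686, plus strand, with 1 core that begins 139 bases before the start: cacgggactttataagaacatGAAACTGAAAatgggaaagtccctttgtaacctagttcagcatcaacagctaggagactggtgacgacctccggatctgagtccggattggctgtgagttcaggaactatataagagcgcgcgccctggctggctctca
Oasl2, chr5:114896774-114896933, plus strand, with no match to the ISRE core in its whole window: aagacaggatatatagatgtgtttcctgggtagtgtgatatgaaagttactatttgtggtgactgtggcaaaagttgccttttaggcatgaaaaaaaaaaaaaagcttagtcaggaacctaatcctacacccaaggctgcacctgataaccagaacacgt

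The 6 libraries held between 15660395 and 17276168 counts over the listed genes. Levels are given as CPM, the count of a gene scaled to a common library total with TMM factors. Genes varied between replicates by a biological coefficient of variation of 10.1%. Libraries WS1 and WS3 stood apart: WS1 gave the highest value for 25.6% of all listed genes and the lowest for 25.9%, and WS3 gave the highest for 23.9% and the lowest for 21.5%. Across all 13747 tested genes edgeR's quasi-likelihood test called 5 genes higher in WS at an adjusted p under 0.05 (0.0364%) and 0 lower (0%), where an unadjusted p under 0.05 was reached by 119 genes higher (0.866%) and 45 lower (0.327%). With same-numbered libraries treated as pairs 11 genes were called (0.08%), all higher, and DESeq2 called 8 (0.0582%).

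Most of the members were weakly expressed in this cortex. Per kilobase of exon, their median level was 0.929 CPM, against 4.77 CPM per kilobase over all listed genes with a length, and 27 of the 33 lay below that median. As many as 19 members lay below the 25th percentile of all genes. In counts, 17 of the 33 had a mean under 50 per library and 1, B2m, had a mean over 1000. B2m was the most abundant member at 107.9 CPM per kilobase, the 97.5th percentile of all genes. Ifitm3, a membrane protein that blocks viral entry, followed at 16.0 CPM per kilobase (percentile 78.3) and the class I heavy chain H2-D1 at 12.6 (percentile 73.4). The interferon effector Ifi27 had 9.81 CPM per kilobase, tapasin 7.19 and H2-K1 6.0. At the other end the oligoadenylate synthetase Oas2 had 0.0601 CPM per kilobase, the 1.87th percentile, and its relative Oasl1 had 0.115. The order of neighbours was not tested, and in H2-D1 the libraries alone spanned 24.4 to 42.2 CPM.

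**Figure D1:**
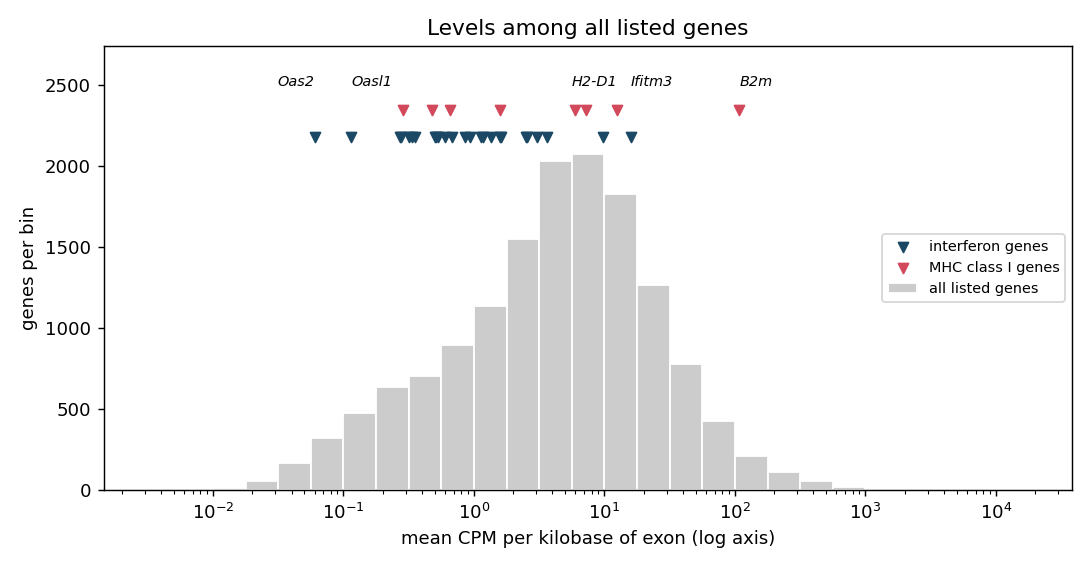
Number of listed genes (vertical axis) in bins of mean CPM per kilobase of exon (horizontal log axis), with a triangle for each listed member, blue for the 25 interferon genes and red for the 8 MHC class I genes. B2m sits far to the right at the 97.5th percentile and Oas2 at the left end at the 1.87th, and 27 of the 33 members lie to the left of the median of all genes.

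Against this level, no member passed the test between WS and NS once all genes were taken into account. Of the 30 tested members 0 were called by edgeR, where the Benjamini-Hochberg adjusted p was 0.9998 for each of them, and 0 were called with paired libraries or by DESeq2. At an unadjusted p under 0.05 there were 2 members, Oasl2 higher (beside 0.866% of all tested genes) and Tap2 lower (beside 0.327%). With paired libraries there were 3, Oasl2 and Gvin1 higher (beside 1.38% of all tested genes) and Tap2 lower (beside 0.386%). DESeq2 gave 1, Oasl2 (beside 0.495% higher and 0.116% lower). In value, 22 of the 30 were higher in WS, beside 53% of all tested genes, and the 8 lower ones were Irf1, Ifit3, Isg15, Usp18, Trim30a, Rtp4, Tap2 and B2m. The median log2 fold change of the tested members was 0.09, against 0.0074 over all tested genes and 0.040 over the 2326 genes whose mean count lay between the members' quartiles of 37.4 and 153.0. The median SE of the log2 fold change was 0.21 in the members, 0.18 in those 2326 genes and 0.11 in all tested genes. The fold change exceeded its own SE in 11 of the 30 members, beside 24% of all tested genes. On simulated counts for the same 13747 genes the test recovered 92% of genes changed by 1 on the log2 scale and 48% of those changed by 0.5. Those shares are each over 50 changed genes drawn among all tested genes, whose median count was 427.3, whereas the tested members had a median of 52.75 counts and larger SEs. The simulated libraries were independent draws, with no pairs and no library that stood apart as WS1 and WS3 did. Of the calls made on them 9.24% were false.

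**Figure D2:**
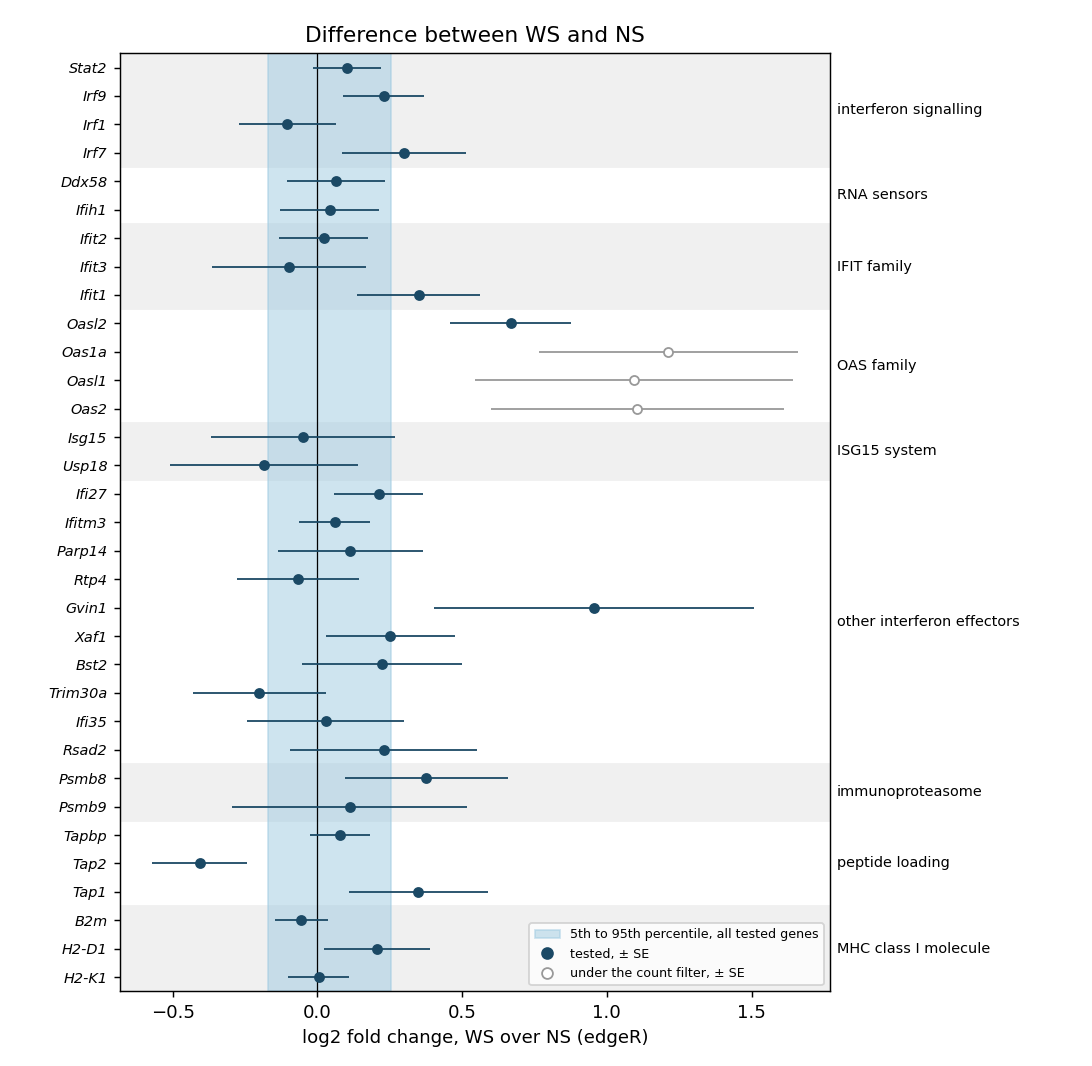
Log2 fold change of WS over NS for each of the 33 listed members, ordered by role, with bars of 1 SE from edgeR without pairing. The blue band holds the 5th to 95th percentile of all tested genes (−0.17 to 0.26), and open symbols mark the 3 members under the count filter, fitted without it. The bars of 19 of the 30 tested members cross 0, and among tested members Oasl2 and Tap2 lie farthest from 0 relative to their SE in this unpaired fit.

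The 4 upstream signalling genes overlapped between groups. Stat2, a STAT of the ISRE-binding complex, had 18.6, 15.9 and 17.2 CPM in the NS libraries and 17.7, 16.8 and 21.2 CPM in the WS libraries. The groups overlapped and only WS3 lay above all NS values, with a log2 fold change of 0.10 (SE 0.12, 95% interval −0.15 to 0.36). Irf9, the DNA-binding partner in that complex, averaged 7.79 CPM ± 0.978 (SD, n = 3) in NS and 9.13 CPM ± 0.59 in WS, and WS exceeded NS in each same-numbered pair. Irf7, the factor that amplifies interferon production, had a log2 fold change of 0.30 (SE 0.21). Irf1, an interferon-gamma target and transcription factor, had a log2 fold change of −0.10 (SE 0.17), or −0.19 without WS2 and −0.013 without WS3. Summed over these 4 genes, NS ranged from 30.4 to 33.4 CPM and WS from 33.8 to 36.9 CPM.

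The cytoplasmic RNA sensors, which detect viral RNA and start interferon production, overlapped between groups too. Ddx58, which encodes RIG-I, had 5.93, 4.93 and 6.71 CPM in NS and 5.33, 6.56 and 6.51 CPM in WS. All 3 WS values fell inside the NS range, and the log2 fold change was 0.07 (SE 0.17). Ifih1, which encodes MDA5, had a log2 fold change of 0.04 (SE 0.17).

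The IFIT genes, whose proteins bind foreign RNA at its 5′ end or block its translation, lie together on chromosome 19 between 34550694 and 34650009 (GRCm38, gene models of GENCODE M21) and had unlike values. Ifit1, whose promoter is printed above, had 2.46, 1.93 and 2.11 CPM in NS and 2.55, 2.78 and 2.97 CPM in WS, from 31 to 39 and 43 to 47 counts. The groups did not overlap, although NS1 and WS1 were close, and the log2 fold change was 0.35 (SE 0.21, 95% interval −0.11 to 0.81). Ifit2 had 11.2, 8.80 and 9.32 CPM in NS and 8.65, 9.15 and 11.9 CPM in WS. Both the lowest and the highest of those 6 values were WS libraries, and the log2 fold change was 0.02 (SE 0.15). Ifit3 had 7.06, 3.68 and 8.88 CPM in NS and 6.64, 4.89 and 6.82 CPM in WS, with the second library the lowest in either group. Its log2 fold change was −0.10 (SE 0.27), and Ifit3 was among the members with fractional counts.

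All 4 OAS members were higher in WS in value, and in each same-numbered pair. These genes encode 2′-5′-oligoadenylate synthetases, which on double-stranded RNA make the messenger that activates RNase L, and their OAS-like relatives. All 4 members lie on chromosome 5, Oasl2 at 114896936 to 114912234, Oasl1 at 114923240 to 114937915, Oas2 at 120730333 to 120749853 and Oas1a at 120896256 to 120907521.

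Oasl2 had 2.33, 2.31 and 2.86 CPM in NS and 3.26, 4.33 and 4.36 CPM in WS, from 37, 37 and 46 against 55, 70 and 69 counts. Every WS library lay above every NS library. Mean levels were 2.5 CPM ± 0.31 (SD) and 3.98 CPM ± 0.627, a log2 fold change of 0.67 (SE 0.21, 95% interval 0.21 to 1.12) with an unadjusted edgeR p of 0.00781. It did not pass the adjustment over all genes in edgeR, with or without pairing, or in DESeq2. The exact two-sided permutation test gave 0.1, the smallest p that 3 libraries against 3 allow. Leaving out any 1 library kept its log2 fold change between 0.59 and 0.80.

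The other 3 OAS members were counted in single counts to 14 per library, so their values are given as counts. Oas1a had 6, 7 and 2 counts in NS and 14, 13 and 9 in WS. The groups did not overlap, and the depth-scaled ratio of the sums, 36 over 15, was 2.36 with an exact 95% interval of 1.26 to 4.63 that covers counting error only. Oas1a was among the members with fractional counts, and its ratio and interval take the rounded values as true counts. Oas2 had 4, 2 and 2 counts in NS and 7, 5 and 6 in WS, again without overlap, with a ratio of 2.21 (0.914 to 5.87). Oasl1 had 3, 5 and 1 counts in NS and 5, 7 and 8 in WS, where NS2 equalled WS1 in counts, with a ratio of 2.18 (0.95 to 5.44). The intervals of Oas2 and Oasl1 include 1. Summed over the 4 genes the OAS members had 3.15, 3.18 and 3.17 CPM in NS and 4.80, 5.88 and 5.81 CPM in WS, a sum of which Oasl2 was the main part. The remaining OAS genes in the table went the other way in value. Oas1c had 33, 24 and 22 counts in NS and 22, 18 and 21 in WS (log2 fold change −0.40, SE 0.27), and after scaling to CPM its WS libraries lay below its NS libraries without overlap. Oas3 had a log2 fold change of −0.15 (SE 0.28). Among the 33 members, WS lay above NS without overlap in 4, Ifit1, Oas1a, Oas2 and Oasl2, beside 3.26% of all listed genes, and below NS in 1, Tap2, beside 3.18%. Of genes with a mean under 10 counts 4.79% had WS wholly above NS, and of the 3 members that low 2 did.

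**Figure D3:**
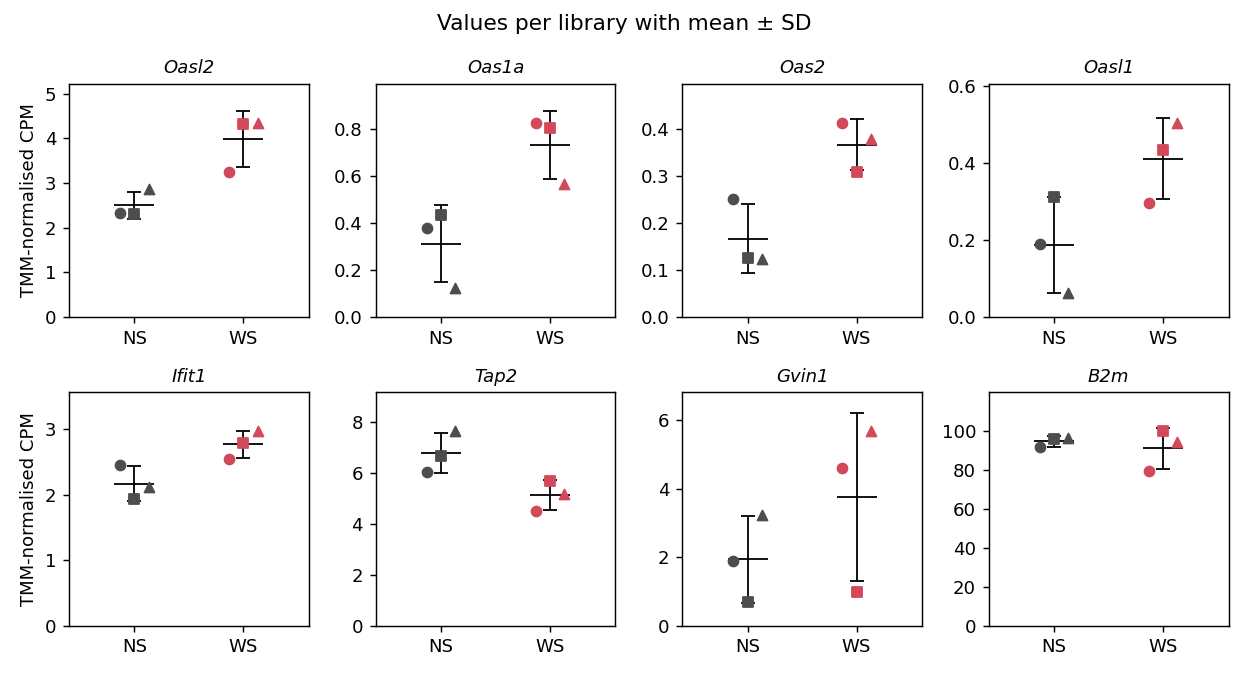
TMM-scaled CPM in each library for 8 members, with the mean and SD of each group (horizontal line and bar), NS in grey and WS in red, with circles, squares and triangles for replicates 1, 2 and 3 and each axis starting at 0. Oasl2 in WS lies wholly above NS and Tap2 wholly below, whereas the B2m groups overlap and Gvin1 is lowest in replicate 2 and highest in replicate 3 of both groups.

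Isg15, the ubiquitin-like modifier that is among the strongest interferon targets and whose start is preceded by the 3 overlapping cores printed above, had 0.883, 1.06 and 1.80 CPM in NS and 1.24, 1.18 and 1.2 CPM in WS. NS3 was the highest of the 6 libraries, from 29 counts, and the WS libraries had 21, 19 and 19 counts. The log2 fold change was −0.05 (SE 0.32, 95% interval −0.75 to 0.65). Usp18, the protease that removes ISG15 and damps receptor signalling, had a log2 fold change of −0.18 (SE 0.32).

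Among the other interferon effectors, 8 of 10 tested genes were higher in WS in value, and an unadjusted p under 0.05 was reached by 0 of them without pairing and by Gvin1 with paired libraries. Ifi27, a small protein of mitochondria and the nuclear envelope, had 12.5, 12.2 and 15.3 CPM in NS and 13.3, 19.1 and 13.9 CPM in WS. A single library, WS2, stood above the rest, and the log2 fold change was 0.21 (SE 0.15, 95% interval −0.12 to 0.55). The restriction factors Ifitm3 (log2 fold change 0.06, SE 0.12), Bst2 (0.22, SE 0.28) and Rsad2 (0.23, SE 0.32) all overlapped between groups. Single libraries carried weight here, since the log2 fold change of Bst2 was 0.024 without NS2 and 0.52 without NS3, and that of Ifi27 was 0.022 without WS2 and 0.32 without NS3.

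Gvin1, a very large interferon-inducible GTPase, varied more between replicate numbers than between groups. It had 1.89, 0.687 and 3.23 CPM in NS and 4.62, 0.990 and 5.68 CPM in WS, so the second library was lowest and the third highest in either group. The highest library was 8.28 times the lowest. The CV within groups was 68.7%, where counting alone gives 14.7%. Its log2 fold change of 0.96 had an SE of 0.55 (95% interval −0.25 to 2.17) when libraries were treated as independent and an SE of 0.23 when same-numbered libraries were paired, with an unadjusted edgeR p of 0.11 and of 0.000426. The adjusted p with pairing, by edgeR's quasi-likelihood test, was 0.45, the lowest of any member in any of the 3 fits. WS exceeded NS by 1.29, 0.53 and 0.82 on the log2 scale in the 3 pairs. Leaving out 1 library moved the unpaired log2 fold change to between 0.54 (without WS3) and 1.54 (without NS3). Gvin1 also had counts that were not whole numbers, and it has near-identical copies in the same stretch of chromosome 7, so its level is uncertain.

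The genes of the MHC class I pathway included the best measured members, and 6 of the 8 were higher in WS in value and 2, Tap2 and B2m, lower. On chromosome 17, 7 of the 8 lie between 33915899 and 35267499, in the mouse MHC, and B2m lies on chromosome 2 at 122147686 to 122153083. The immunoproteasome subunit Psmb8 had 1.51, 2.5 and 1.74 CPM in NS and 2.84, 2.91 and 1.71 CPM in WS. WS1 and WS2 lay above all NS libraries while WS3 lay among them, with a log2 fold change of 0.38 (SE 0.28, 95% interval −0.24 to 0.99), or 0.23 without NS1 and 0.61 without NS2. Psmb9, the other subunit, had 1.07, 0.562 and 1.37 CPM in NS and 1.54, 0.619 and 1.07 CPM in WS, with the second library again the lowest in either group.

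The genes of the TAP1 and TAP2 chains of the peptide transporter went opposite ways in value. Tap1 averaged 2.31 CPM ± 0.587 (SD, n = 3) in NS and 2.95 CPM ± 0.449 in WS, a log2 fold change of 0.35 (SE 0.24), or 0.21 without WS2 and 0.57 without NS3. Tap2 had 6.05, 6.68 and 7.64 CPM in NS and 4.50, 5.69 and 5.18 CPM in WS, from 96, 107 and 123 against 76, 92 and 82 counts. Every WS library lay below every NS library. The log2 fold change was −0.41 (SE 0.16, 95% interval −0.76 to −0.05), with an unadjusted edgeR p of 0.0286 that did not pass the adjustment. Genes of this pathway share exonic bases with neighbours: Tap1 overlaps Psmb9 on the opposite strand by 212 bases, and Tap2 overlaps Gm15821 on the opposite strand by 533 and Gm20496 by 165. Psmb8 overlaps Gm20496 on the opposite strand by 498 bases, and Tapbp overlaps Gm19412 on the opposite strand by 904 and Zbtb22 on the same strand by 149. Whether reads were counted by strand is not given in the sources used here, so part of the counts of these 5 genes could belong to the neighbour. The same limit applies to interferon genes. Irf9, Rtp4 and Parp14 share 123, 296 and 110 exonic bases with a neighbour on the same strand. Irf1, Irf7, Oasl1, Usp18 and Ifi35 share 38 to 290 with a neighbour on the opposite strand. Tapbp, which bridges the transporter and the heavy chain, had 26.2, 25 and 25 CPM in NS and 30.3, 25.3 and 24.8 CPM in WS. WS1 alone was high, and the log2 fold change was 0.08 (SE 0.10, 95% interval −0.15 to 0.31).

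B2m, the invariant light chain of every class I molecule, gave the tightest bound. It had 91.5, 95.9 and 96.3 CPM in NS and 79.2, 99.7 and 94.1 CPM in WS. The lowest and the highest library were both WS, and the log2 fold change of −0.06 (SE 0.09) had a 95% interval that spans a WS level of 0.837 to 1.11 times that in NS. H2-K1 had 17.4, 17.8 and 17.6 CPM in NS and 19.3, 17.9 and 15.7 CPM in WS, with equal means of 17.6 CPM and an SD of 0.194 in NS and 1.81 in WS. H2-D1 had 34.4, 31.6 and 24.6 CPM in NS and 42.2, 37.7 and 24.4 CPM in WS, with the third library the lowest in either group. Its CV within groups was 22.9%, where counting alone gives 4.36%, and the log2 fold change was 0.21 (SE 0.18, 95% interval −0.19 to 0.60), or 0.043 without WS1 and 0.41 without WS3. The heavy chain genes are near-identical in long stretches, and H2-D1 was among the 7 members with values over 0.1 from a whole number, with Ifit3, Oas1a, Gvin1, Trim30a, Xaf1 and Tapbp, as were 21.3% of all listed genes.

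**Figure D4:**
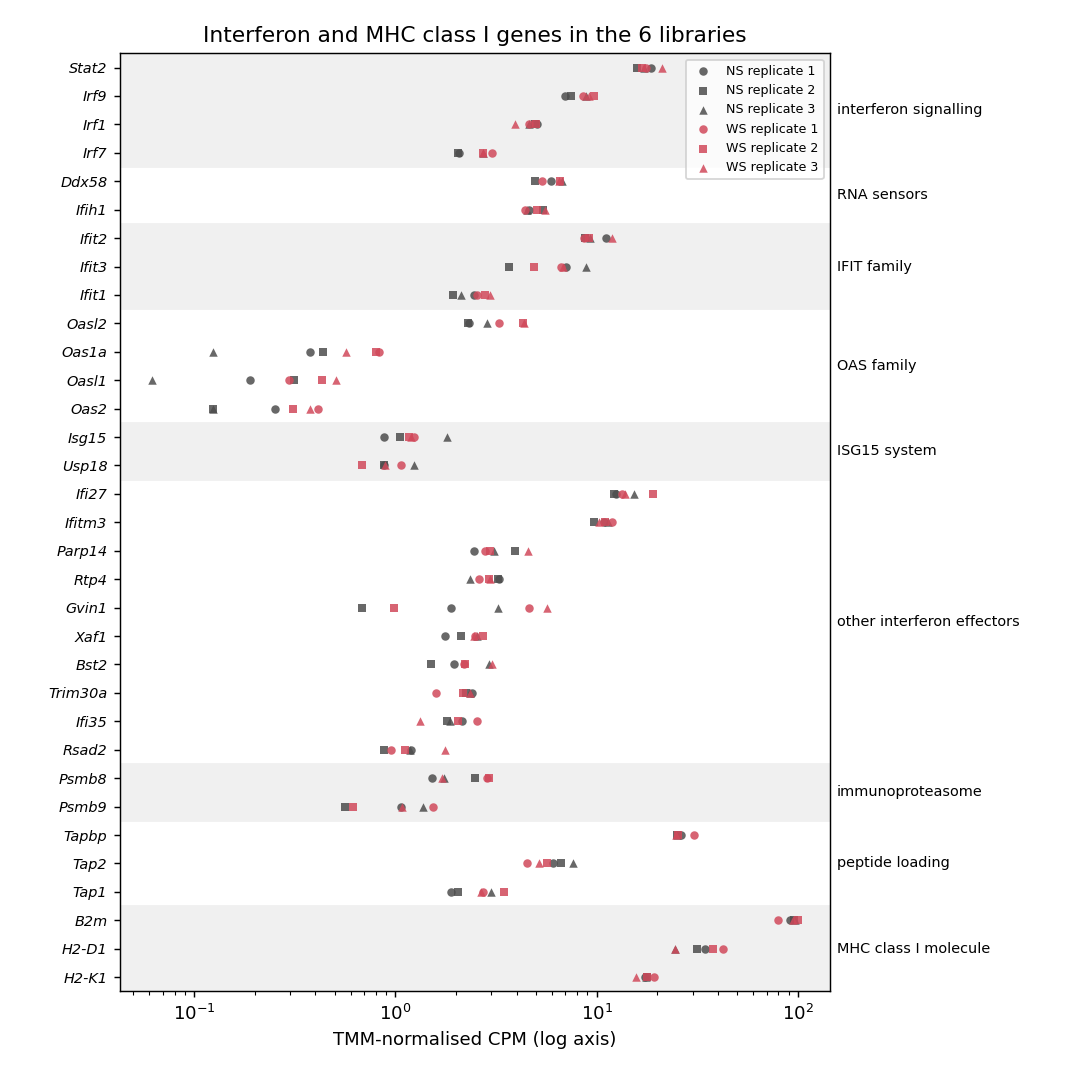
TMM-scaled CPM of the 33 listed members in each of the 6 libraries on a log axis, grouped by role, NS in grey and WS in red, with circles, squares and triangles for replicates 1, 2 and 3. The class I molecule genes lie above 15 CPM in every library and the OAS genes below 5, and the groups overlap for all members but 5.

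Taken library by library, the summed level of the interferon genes was highest in WS3 and that of the class I genes in WS2. The 25 listed interferon genes summed to 109.3, 98.5 and 117.5 CPM in NS and 113.5, 117.6 and 126.9 CPM in WS. NS2 was the lowest and WS3 the highest, and the other 4 libraries overlapped between groups. NS2 gave the lowest value for 12 of the 33 members, beside 13.3% of all listed genes, and the highest for none, beside 11.9%. The 8 class I genes summed to 179.9, 182.0 and 177.2 CPM in NS and 182.7, 193.2 and 169.6 CPM in WS, with WS2 the highest and WS3 the lowest. B2m made up 26.7 to 34.2% of the counts of all members. WS3 was thus high for the interferon genes (median deviation 0.12 on the log2 scale with a pseudocount of 0.5 CPM) and low for the class I genes (−0.11), while WS1 was at 0.020 and 0.17 and WS2 at 0.042 and 0.065. These deviations come from single libraries and were not tested.

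**Figure D5:**
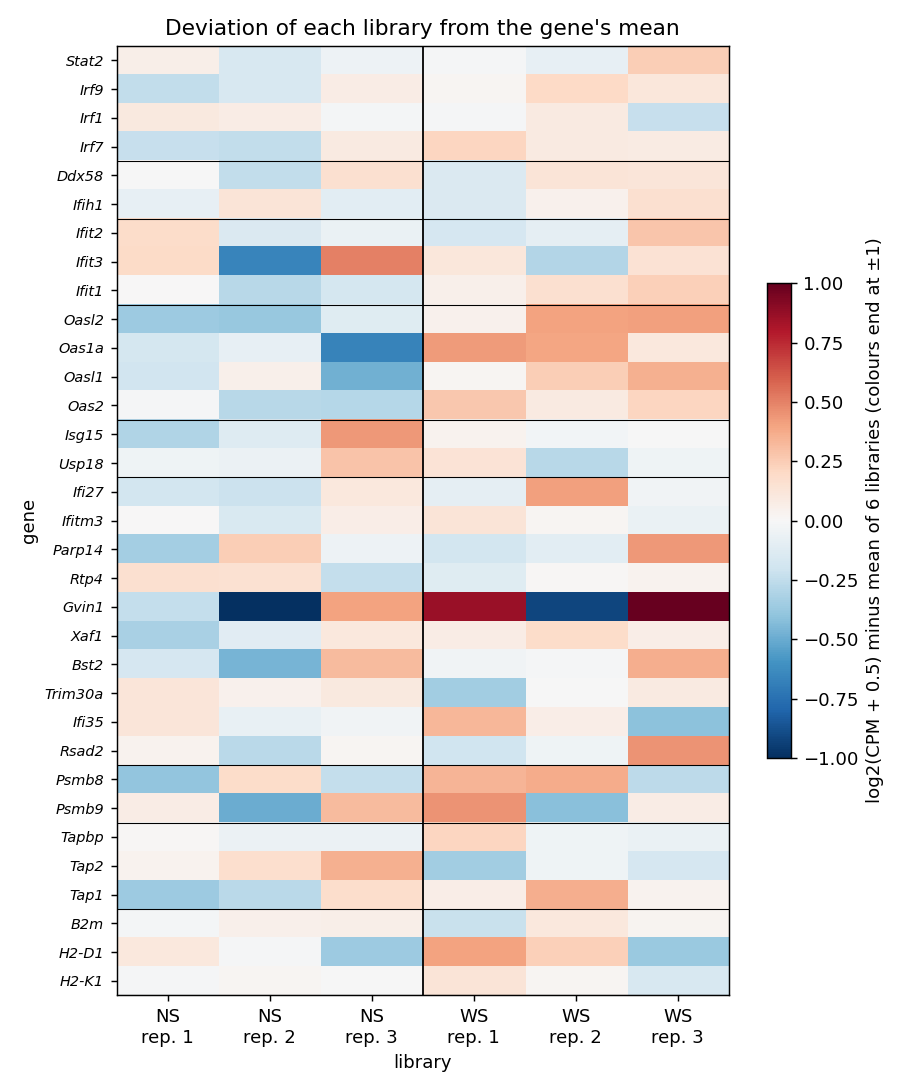
Deviation of each member in each library from its mean over the 6 libraries, in log2(CPM + 0.5), with members ordered by role and colours that end at −1 and 1. NS2 gives the lowest value for 12 of the 33 members, and Gvin1 shows the widest range, with both replicate 2 libraries low.

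Within same-numbered pairs WS exceeded NS in 22, 27 and 14 of the 33 members for numbers 1, 2 and 3, beside 51.1%, 50% and 50.6% of all listed genes. The median log2 difference over the tested members was 0.16, 0.18 and −0.02 in the 3 pairs. WS exceeded NS in all 3 pairs for 8 members, Irf9, Ifit1, Oas1a, Oas2, Oasl1, Oasl2, Bst2 and Gvin1, beside 10% of all listed genes. Trim30a and Tap2 were lower in all 3 pairs, beside 8.71%. The 11 tested members with an ISRE core had log2 fold changes with a median of 0.060, Ifit1 being highest, and the 13 whose windows held none had a median of 0.21, Oasl2 being highest. In value 7 of those 11 and 12 of those 13 were higher in WS, and the 4 with a core that were lower were Ifit3, Isg15, Trim30a and B2m.

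Beyond the members, the rest of the pathway was read from lists of related genes, in none of which a gene was called by edgeR, with or without pairing, or by DESeq2. The counts below stand beside 53% of all tested genes higher in WS in value. No interferon ligand in the list, of type I, II or III, had a row in the table, whereas 5 receptor chains did, with 2 higher and 3 lower in WS in value. Of 20 further JAK, STAT and IRF genes 8 were higher and 12 lower, with a median log2 fold change of −0.01. Jak1, the shared receptor kinase, had a log2 fold change of −0.02 (SE 0.07). Of 17 tested genes of nucleic acid sensing 13 were higher, with a median of 0.064, and Mavs, the mitochondrial adaptor downstream of RIG-I and MDA5, reached an unadjusted edgeR p of 0.0201. Mavs had 126, 140 and 122 counts in NS and 174, 162 and 161 in WS, without overlap. Of 46 tested further interferon-stimulated genes 31 were higher and 15 lower, with a median of 0.042, and Epsti1 reached an unadjusted p of 0.0485 from 8 to 11 counts in NS and 14 to 19 in WS. Other class I and loading genes split 8 to 7, with a median of 0.0099, and class II genes split 4 to 3. Over the 124 listed genes of these lists, WS lay above NS without overlap in 9 (Mavs, Myd88, Il10rb, Iigp1, Samd9l, Lgals9, Epsti1, Erap1 and Cd74), beside 3.26% of all listed genes, and below NS in 4 (Tbk1, Irf8, Oas1c and H2-Q1), beside 3.18%.

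Because whole cortex was sequenced, a lower or higher value can reflect fewer or more cells of a type, or less or more RNA per cell, and these cannot be told apart. Markers of the cells that carry class I and interferon genes were read from lists beside the members. Of all tested genes 53% were higher in WS in value, the share to set beside each list. All 14 microglial markers were listed, 13 were higher in WS in value and none reached an unadjusted p under 0.05. Their sum ranged from 581.7 to 609.2 CPM in NS and from 615.3 to 643.5 CPM in WS, without overlap, with a median log2 fold change of 0.11. All 15 endothelial markers were higher in value (median 0.088). Their sums overlapped, 476.9 to 540.2 CPM in NS and 508.9 to 593.1 CPM in WS. Pecam1, an endothelial adhesion molecule, was the only marker among them at an unadjusted p under 0.05 (0.000532 in edgeR, log2 fold change 0.87). Pecam1 was called with paired libraries and by DESeq2. All 10 astrocyte markers were higher in value (median 0.13), as were all 8 oligodendrocyte markers (median 0.19), and the sums of both lists overlapped between groups, while neuronal markers split 8 to 5 (median 0.025). Pericyte markers split 8 to 2, and their sum ranged from 286.2 to 289.8 CPM in NS and from 293.0 to 339.8 CPM in WS, also without overlap. Leptomeningeal fibroblast markers split 6 to 2, and Col1a2, a fibrillar collagen chain, reached an unadjusted p of 0.0335 in edgeR, higher in WS. Border macrophage markers split 5 to 1, choroid plexus markers 3 to 6 and blood markers 5 to 0. Markers of blood-borne immune cells were little represented: 2 of 10 T, NK and B cell markers and 3 of 9 neutrophil and monocyte markers had a row, and Cd3e, Cd8a and Ly6g had none. The part of these cell types in the members' values was not tested.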

How the data were processed

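RNA-seq libraries of S1 cortex (3 NS, 3 WS) were analysed as 1 sample each. Per the study's methods, the authors sequenced on a DNBseq platform, removed ribosomal reads and aligned with HISAT2 (build mm10 per the submitters' processing notes). Their stated cut-off on RNA integrity was low, so RNA of low integrity could pass. The counting tool is not given in the sources used here. The deposited table gives per gene the mean of the estimated counts over the 6 libraries, their SD (a signal in counts) and a z-score per library. From these, library counts were recovered as mean + z × SD, and 91.0% of values came out whole (within 0.1 count of a whole number, which covers 20% of the range between whole numbers) in the 13418 genes where rounding in the table left under 0.1 count of doubt. Estimated counts were rounded to whole numbers. The design had assumed plain counts. Deposited columns of the authors' own comparison (p-value, −log10 p-value, fold change and rank scores) were not used. The third WS library is named in the table with an added letter.

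Counts were tested with edgeR 4.0.16 (TMM scaling, filterByExpr, quasi-likelihood test, Benjamini-Hochberg adjustment over 13747 genes) in R 4.3.3, with DESeq2 1.42.0 and a replicate block as alternatives. On simulated counts 9.24% of calls were false. Same-numbered libraries deviated together (correlations 0.34, 0.23 and 0.12 over 13747 genes), so the numbers were read as possible pairs. The main fit, with its SEs, intervals and p-values, is without pairing, and so takes no account of libraries that may share a mouse. Blocked values are named as such. The study's figure legends give 3 mice for the RNA-seq, and which NS and WS libraries share a mouse is not stated in the sources used here. No pair of libraries agreed within sampling noise (lowest chi-square 4.49 per degree of freedom). Gene positions and exon lengths came from GENCODE M21, promoter windows from RefSeq. The members and lists were chosen with earlier results of these data known. Values per library were given for members with an unadjusted p under 0.05, without overlap, under 10 mean counts, or with the highest CPM in their role. Irf7, Irf9, Ifit3, Gvin1, Psmb9, Tap1, H2-D1, H2-K1 and, outside the members, Oas3, Jak1 and the listed genes without overlap were added after their values were seen.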

Additional observations from a re-analysis of the deposited data

How the results depend on the processing

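With the replicate block 11 genes of all tested were called and with DESeq2 8, against 5 without the block, and leaving out 1 library gave 0 to 9, with 0 without NS2 or without NS3, 3 without NS1 and 9 without WS1. No member was called under any setting. Members at an unadjusted p under 0.05 numbered 2, or 3 with the replicate block (Gvin1 added) and 1 with DESeq2. With 1 library left out they numbered 1 to 4. Of all tested genes 0.866% reached that p higher and 0.327% lower in the main fit, and 1.38% and 0.386% with the block. With DESeq2 these shares were 0.495% and 0.116%. At that threshold the block changed no other member. The block lowered some SEs, from 0.18 to 0.11 in H2-D1 and from 0.27 to 0.17 in Ifit3. It raised others, as in Irf1 from 0.17 to 0.18. The members' median log2 fold change of 0.09 became 0.087 with the block and lay between 0.049 (without NS2) and 0.17 (without NS3) when 1 library was left out. Members without overlap numbered 5, and 5 to 13 with 1 library left out, 8 without NS2, 13 without NS3, 7 without WS1 and 9 without WS3. Of all listed genes 6.44% were without overlap, and 15.6%, 14.9%, 17.5% and 20.3% with those libraries left out, since fewer libraries overlap less by construction. Of 364 values of single members under the alternatives, 336 kept their direction and side of the threshold and 28, in 16 members, changed sign. Scaling by library size alone gave H2-K1 −0.0011, and the others came from leaving out 1 library, with log2 fold changes from −0.0024 to 0.16 for Stat2, −0.039 to 0.13 for Ifih1, −0.044 to 0.17 for Ddx58, −0.13 to 0.13 for Ifit2, −0.38 to 0.19 for Ifit3, −0.25 to 0.31 for Isg15, −0.35 to 0.00080 for Usp18, −0.074 to 0.41 for Rsad2, −0.0041 to 0.11 for Ifitm3, −0.21 to 0.012 for Rtp4, −0.20 to 0.24 for Ifi35, −0.14 to 0.30 for Parp14, −0.24 to 0.40 for Psmb9, −0.019 to 0.13 for Tapbp, −0.13 to 0.036 for B2m and −0.065 to 0.080 for H2-K1. The cause was not tested. Depth limits Oas1a, Oas2 and Oasl1, which had 1 to 14 counts per library.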
